A study of Homo sapiens with 18 samples.

Results

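The comparison described here is that of timepoint 2 with timepoint 1 in 3D culture of MCF10A, an immortalised, non-malignant human breast epithelial cell line. Its members are the 3 libraries titled 3D culture, timepoint 2 and the 3 titled 3D culture, timepoint 1, which are 6 of the 18 RNA-seq libraries of the series. Each timepoint 2 library is paired with the timepoint 1 library of the same replicate number. In both groups the cells had been plated sparsely on compliant polyacrylamide gels carrying Matrigel, a laminin-rich basement membrane extract, at 50 µg/ml, and were then covered with growth medium containing 2% Matrigel. The medium held horse serum, EGF, insulin, cholera toxin and hydrocortisone. The 2D libraries, used below for comparison, came from the same gels under medium with no added Matrigel. The protocol lists harvests at 3, 12 and 21 h after plating, and timepoints 1, 2 and 3 are matched to those hours by their order. In the labels each replicate number carries 1 date, shared by all its libraries and different from those of the other numbers. They do not say what the date marks or whether the libraries of a group came from separate cultures, so a p-value here reflects only how far these libraries spread, and that spread may be technical. A single cell line was used. The comparison shows which transcripts changed between the early hours after attachment under the matrix overlay and the following hours.

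Epithelial cells that are detached, plated at low density and given fresh serum and growth factor pass through a burst of immediate early gene expression, driven through ERK signalling and serum response factor, before they spread and resume the cell cycle. Breast epithelial cells surrounded by basement membrane matrix go on to form polarised spheroids, for which they need tight junctions, adherens junctions and desmosomes. The endoplasmic reticulum (ER) folds the secreted and membrane proteins that this requires, and the unfolded protein response adjusts its chaperones through the sensors IRE1, PERK and ATF6.

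Promoters are shown for 6 genes, 2 from each of 3 gene lists in which most of the called members were lower, because each list has a well-known promoter element. These are the ER stress response element (ERSE) of ER chaperone genes, the serum response element core called the CArG box in immediate early genes, and the TEAD site in genes driven by YAP and TAZ. Each sequence holds the 250 bases before a RefSeq transcription start on GRCh38.p14, on the strand of the gene, with the matches in capitals. Where a gene has several such starts, the first listed whose window holds the motif was taken. The windows shown for CANX and AJUBA lie inside the gene spans of GENCODE v29 (179678628 to 179730925 and 22971174 to 22982642). HSPA5 lies at chr9:125241344-125241593 on the minus strand and CANX at chr5:179698679-179698928 on the plus strand, both with an ERSE. SRF at chr6:43171019-43171268 and EGR1 at chr5:138465229-138465478, both on the plus strand, have 2 CArG boxes each, and CCN2 at chr6:131951373-131951622 and AJUBA at chr14:22976843-22977092, both on the minus strand, have TEAD sites.
HSPA5: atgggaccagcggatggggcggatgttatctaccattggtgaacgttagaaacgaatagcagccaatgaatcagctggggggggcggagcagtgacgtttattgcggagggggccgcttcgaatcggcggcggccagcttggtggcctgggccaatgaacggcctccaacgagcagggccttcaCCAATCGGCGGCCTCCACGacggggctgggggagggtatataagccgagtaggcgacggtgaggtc
CANX: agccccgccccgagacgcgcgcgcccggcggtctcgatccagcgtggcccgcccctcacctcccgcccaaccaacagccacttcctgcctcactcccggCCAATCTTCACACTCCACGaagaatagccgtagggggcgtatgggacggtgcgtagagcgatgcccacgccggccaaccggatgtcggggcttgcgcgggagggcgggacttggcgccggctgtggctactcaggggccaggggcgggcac
SRF: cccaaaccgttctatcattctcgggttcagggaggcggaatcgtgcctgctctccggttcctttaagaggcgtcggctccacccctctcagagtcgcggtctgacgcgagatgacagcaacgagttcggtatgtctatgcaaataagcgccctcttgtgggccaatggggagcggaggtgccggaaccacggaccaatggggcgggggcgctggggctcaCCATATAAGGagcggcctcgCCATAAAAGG
EGR1: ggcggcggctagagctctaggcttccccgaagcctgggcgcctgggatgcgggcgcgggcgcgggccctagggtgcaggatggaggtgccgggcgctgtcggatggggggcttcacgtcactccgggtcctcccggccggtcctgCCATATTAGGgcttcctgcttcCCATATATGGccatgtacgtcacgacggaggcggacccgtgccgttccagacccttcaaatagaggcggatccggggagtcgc
CCN2: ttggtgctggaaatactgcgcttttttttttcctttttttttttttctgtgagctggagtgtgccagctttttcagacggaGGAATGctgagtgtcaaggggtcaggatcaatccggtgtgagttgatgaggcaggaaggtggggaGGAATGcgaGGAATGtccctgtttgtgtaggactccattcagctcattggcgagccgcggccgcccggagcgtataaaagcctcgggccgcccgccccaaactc
AJUBA: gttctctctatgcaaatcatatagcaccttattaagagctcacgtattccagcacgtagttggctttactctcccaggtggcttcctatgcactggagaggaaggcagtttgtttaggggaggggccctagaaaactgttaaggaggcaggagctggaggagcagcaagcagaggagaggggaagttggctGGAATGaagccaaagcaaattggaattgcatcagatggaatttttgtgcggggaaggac

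The first matched base of the ERSE (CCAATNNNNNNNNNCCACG) was 66 bases before the start in HSPA5 and 151 in CANX. Windows ran from 250 bases before to 50 after the start, and both strands were searched. Shares over all promoters count each promoter. The list shares count genes, and a gene counts if any of its promoters holds the motif. Genes with several promoters thus have more chances to count, and the shares are not on the same footing. The ERSE was present in 27 of 35116 RefSeq promoters (0.0769%) and in 7 of 23 ER chaperone genes (30.4%). The CArG box was present in 454 promoters (1.29%) and in 3 of 19 immediate early genes (15.8%). The cAMP response element TGACGTCA, searched before it, was in 649 promoters (1.85%) and in 1 of those 19 genes (5.26%). The short TEAD site GGAATG was in 4928 promoters (14%) and in 8 of 16 genes of the YAP-TAZ target list (50%). These counts describe letters in the windows and say nothing about binding of a factor. The motifs were chosen with the expression values known.

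Library totals in the deposited headers were 10.55 M to 16.94 M for the 6 libraries. The summed gene counts were 4.88, 4.89 and 5.53 times those totals at timepoint 1. At timepoint 2 they were 5.54, 5.73 and 5.71 times the totals, so the sums are not a depth. All 12 markers listed for basal breast epithelium exceeded 1 CPM (counts scaled to a common library total) in all 6 libraries. CDH1 and EPCAM among them are not particular to basal cells. Of 23 markers of fibroblasts, immune, endothelial, luminal, fat and blood cells, 5 to 7 exceeded 1 CPM and 8 to 12 were at 0 in each library. Their summed level was 149.6 to 180.8 CPM at timepoint 1 and 141.9 to 244.5 CPM at timepoint 2, of which the proteoglycan gene DCN made up 114.5 to 205.4 CPM. The fibroblast gene COL1A1 (2.15 to 6.59 CPM), the luminal genes GATA3 (6.90 to 12.75 CPM) and FOXA1, and CD68 also exceeded 1 CPM in all 6 libraries. Of endothelial genes, KDR did so in all timepoint 1 libraries and PECAM1 in replicate 3 of both timepoints. COL3A1, CD3E, PGR, ADIPOQ and HBB were at 0 in all 6. In 3D, timepoint 1 replicate 3 stood apart from its group. Cytosolic ribosomal protein genes took 8.39% and 7.02% of the counts in timepoint 1 replicates 1 and 2 but 14.8% in replicate 3, near the 14.8%, 20.3% and 20.0% of timepoint 2. The ratio of summed counts to header total in that library was likewise near those of timepoint 2. Mitochondrially encoded genes took 1.21%, 0.976% and 0.541% at timepoint 1 against 0.364%, 0.457% and 0.482% at timepoint 2. The same-numbered library of 2D timepoint 1 stood apart in the same way. Its ribosomal protein share was 14.4%, against 8.87% and 7.29% in 2D timepoint 1 replicates 1 and 2. Its ratio of summed counts to header total was 5.48, against 4.93 and 4.73. Its mitochondrially encoded share was 0.658%, against 1.17% and 1.25%. Counts that move with 3D timepoint 1 replicate 3 are given with and without that library.

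Between timepoints 1 and 2 a large share of the measured transcriptome changed, with similar numbers of genes rising and falling. Counts were tested with edgeR's quasi-likelihood F test with the replicate number as a block, and a gene is called here when its Benjamini-Hochberg adjusted p is under 0.05. Of 18592 genes tested, 5279 (28.4%) were called, 2750 higher (14.8%) and 2529 lower (13.6%) at timepoint 2, and 1823 (9.81%) were also changed by a fold of at least 2. The median log2 fold change over all genes was 0.01, with quartiles of -0.40 and 0.43. Without the block 2801 genes were called, 2800 of them among the 5279 with the same sign, and without timepoint 1 replicate 2 the count was 3280. Against the 13.6% of all genes called lower, 22 of 25 immediate early genes, 19 of 22 genes of adherens junctions and desmosomes, 17 of 29 of tight junctions and polarity and 13 of 24 ER chaperones were lower, the last number falling to 3 without the block. Against the 14.8% called higher, 39 of 41 cytosolic ribosomal protein genes were higher, and 18 without the block. In bulk RNA, fewer cells of a kind and less RNA per cell cannot be told apart. CPM values depend on transcript length and are not compared between genes. Of the called genes, 3936 had no overlap in CPM between the groups and the same direction in each replicate pair. Genes named for size or a small p were chosen from these, so their separation was set by the choice. The 14.8% higher and 13.6% lower among all genes are the background for every list count below. Below, a signed value given alone in parentheses after a gene is its log2 fold change, and a gene is said to rise or fall where it is called.

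**Figure D1:**
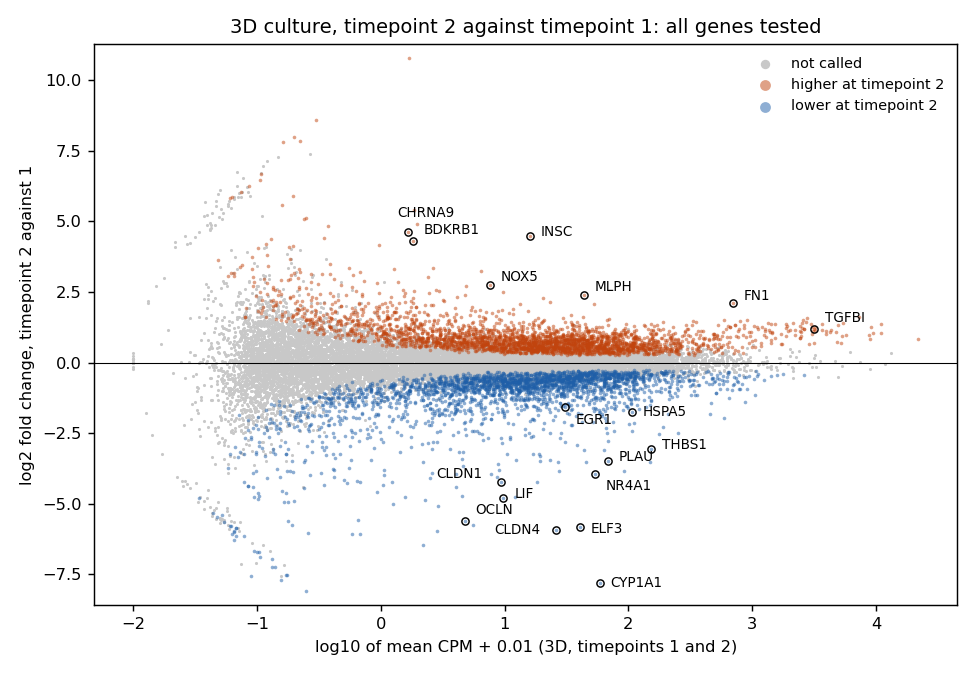
Log2 fold change of each of the 18592 tested genes (y axis) against the log10 of its mean CPM over the 6 libraries plus 0.01 (x axis). Orange and blue points are called higher and lower at timepoint 2 and grey points are not called. The labelled junction genes CLDN4, OCLN and CLDN1 lie more than 4 log2 units below 0, and INSC and MLPH lie among the called genes above 0.

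The most strongly lowered genes included the cytochrome CYP1A1 and several regulators and components of the epithelial barrier. CYP1A1, an enzyme that oxidises aromatic compounds (ENSG00000140465.14, chromosome 15, 74719542 to 74725610, GENCODE v29 on GRCh38), was at 157, 102 and 90.7 CPM in the timepoint 1 libraries and 0.0949, 0.82 and 0.774 CPM in the timepoint 2 libraries (log2 fold change -7.81, SE 0.53, adjusted p = 4.06e-07). The timepoint 1 libraries were all far above those of timepoint 2, of which replicate 1 was the lowest. ELF3 (ENSG00000163435.16, chromosome 1, 202007945 to 202017188), which encodes an epithelial ETS transcription factor, was at 79.1, 59.9 and 101 CPM and then at 0.724, 1.64 and 2.1 CPM (log2 fold change -5.84, SE 0.34, adjusted p = 1.22e-07). The groups were again far apart. A noncoding gene overlaps ELF3, and no source used here says whether counting was stranded. OVOL1, a zinc finger repressor active in epithelial differentiation, went from 4.31, 5.6 and 6.85 to 0.131, 0.176 and 0.19 CPM (log2 fold change -5.07, SE 0.28, adjusted p = 8.97e-08). LIF, a cytokine of the IL-6 family (ENSG00000128342.5, chromosome 22, 30240447 to 30246851), went from 16.8, 17.5 and 22.3 to 0.486, 0.82 and 0.774 CPM (log2 fold change -4.79, SE 0.27, adjusted p = 1.05e-07). Neither gene had overlapping groups, which the choice by size required. Of the other lowered genes named for size, FGD2, a guanine nucleotide exchange factor for CDC42, had a log2 fold change of -6.47 (SE 0.58) and the tubulin-binding protein gene TPPP -5.77 (SE 0.34). The serpins SERPINB10 and SERPINB2 had log2 fold changes of -4.87 and -4.77 (SE 0.53 and 0.40). Those named for a small p included CLDN1, described with the junction genes. SOX9, a transcription factor of epithelial progenitors, fell from a mean of 16.7 to 1.23 CPM (-3.80). Others were C1orf116 (-2.78) and VGLL3, a cofactor of TEAD proteins (-2.56). Fold changes of genes near 0 at timepoint 2 move with single libraries: FGD2 was at -7.67 without timepoint 2 replicate 1, CYP1A1 at -7.13 and SERPINB10 at -5.52, all still called.

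Genes that rose most started from low levels. INSC, an adaptor that orients the mitotic spindle in polarised cells (ENSG00000188487.11, chromosome 11, 15112424 to 15247208), was at 1.64, 1.47 and 0.973 CPM at timepoint 1 and 39.7, 27.6 and 24.9 CPM at timepoint 2 (log2 fold change 4.49, SE 0.42, adjusted p = 7.01e-06). BDKRB1, the inducible bradykinin receptor, was at 0.101, 0.142 and 0.313 and then 3.76, 3.22 and 3.29 CPM (log2 fold change 4.29, SE 0.39, adjusted p = 5.07e-06). MLPH, a RAB27A effector that links melanosomes to myosin (ENSG00000115648.14, chromosome 2, 237485428 to 237555318), was at 15.6, 14.9 and 10.4 and then 104, 67.0 and 50.4 CPM (log2 fold change 2.40, SE 0.18, adjusted p = 7.98e-07). In these 3 genes every timepoint 2 library exceeded every timepoint 1 library, which the choice by size or small p required. NOX5, a calcium-regulated NADPH oxidase, rose from 2.02, 2.1 and 1.55 to 18.4, 14.6 and 7.09 CPM (log2 fold change 2.76, SE 0.33, adjusted p = 4.94e-05), and its timepoint 2 replicate 3 was the lowest of that group. The others named for size were the nicotinic receptor subunit CHRNA9 (4.62), KANK4 (4.89), the secretory protein gene SCG5 (5.41), the collagen gene COL6A3 (3.25) and the noncoding genes LASTR (3.36) and RPSAP52 (3.04), the last a pseudogene whose reads are uncertain. KANK4 moved to 4.04 and 5.69 without timepoint 1 replicates 1 and 2, SCG5 to 6.32 without timepoint 1 replicate 2 and RPSAP52 to 3.69 without timepoint 1 replicate 3. UCA1, a long noncoding RNA, had 0 counts at timepoint 1 and 7.05, 2.5 and 0.49 CPM at timepoint 2. Its timepoint 2 mean, to which replicate 1 contributed most, was 243 times a floor of 3 counts over the timepoint 1 group. Its call (adjusted p = 0.023) was lost with limma-voom (0.142), and without timepoint 1 replicates 1 and 2 or timepoint 2 replicates 1 and 2 in turn (0.102, 0.0652, 0.0629 and 0.0528). The genes named for a small p were MLPH, LASTR and 3 others. SH2D2A, a T-cell adaptor, rose from a mean of 6.88 to 33.6 CPM (2.27). DGAT2, which makes triglyceride, rose from a mean of 4.08 to 14.9 CPM (1.86). MRPL34, of the mitochondrial ribosome, rose from a mean of 34.8 to 99.3 CPM (1.51).

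**Figure D2:**
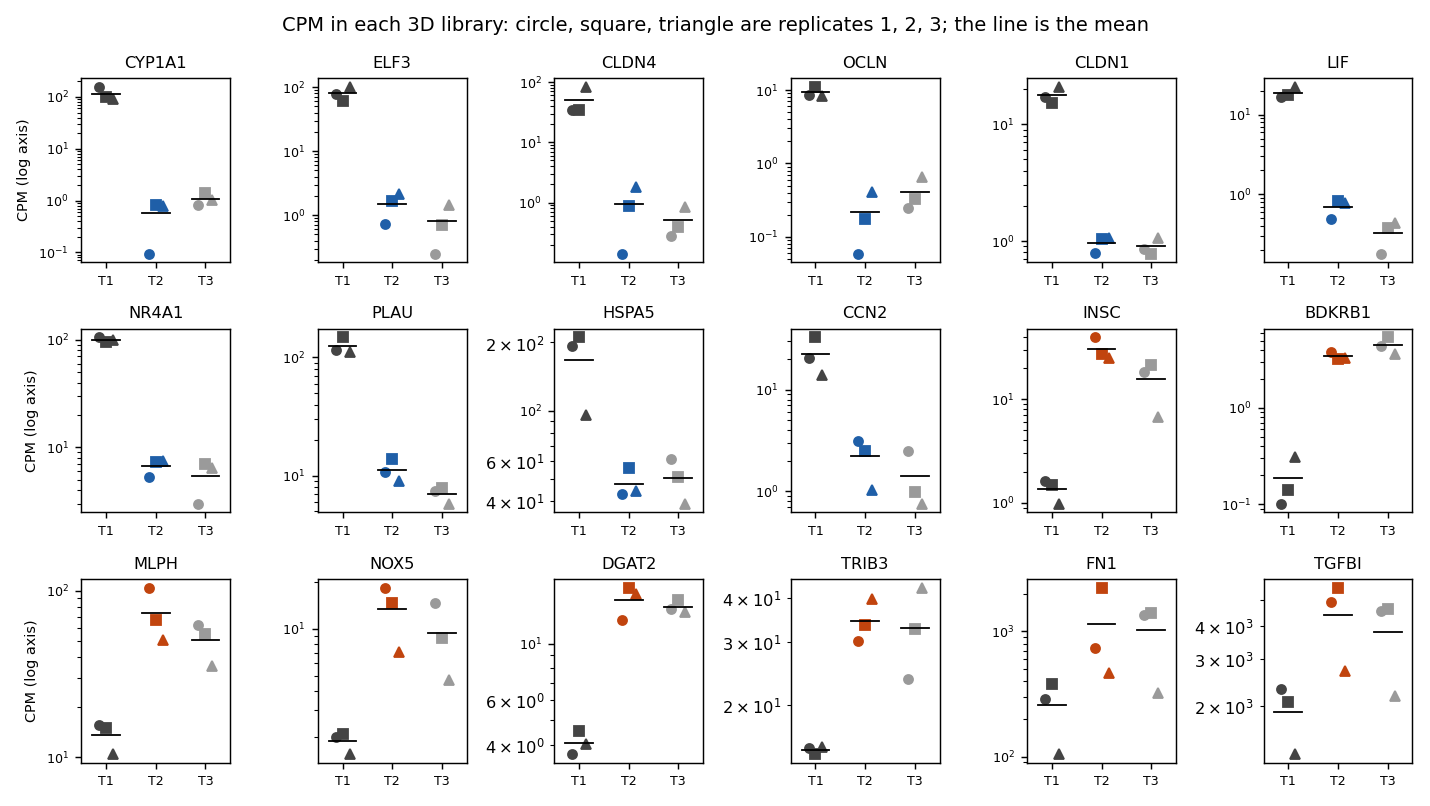
CPM on log axes for 18 genes in the 9 libraries of 3D culture at timepoints 1, 2 and 3 (T1, T2, T3). Circles, squares and triangles are replicates 1, 2 and 3 and the horizontal line is the group mean. Timepoints 1 and 2 do not overlap in any panel, and the timepoint 3 values of CYP1A1, ELF3, CLDN4, OCLN, CLDN1 and LIF stay below those of timepoint 1.

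Tight junction genes, listed with polarity genes and with the epithelial transcription factors ELF3 and OVOL1 described above, fell wherever they were called. Of 29 tested genes of tight junctions and polarity, 17 were lower and 0 higher, against 13.6% lower among all genes, and the list median was -0.69. CLDN4, a claudin that seals the paracellular cleft (ENSG00000189143.9, chromosome 7, 73799542 to 73832693), was at 34.6, 35.0 and 83.7 CPM at timepoint 1 and 0.142, 0.878 and 1.83 CPM at timepoint 2 (log2 fold change -5.93, SE 0.36, adjusted p = 1.33e-07). OCLN, the membrane protein occludin (ENSG00000197822.11, chromosome 5, 69492292 to 69558104), was at 8.49, 11.1 and 8.23 and then 0.0593, 0.176 and 0.411 CPM (log2 fold change -5.62, SE 0.42, adjusted p = 9.70e-07), and at -6.26 without timepoint 2 replicate 3. CLDN1, another claudin (ENSG00000163347.6, chromosome 3, 190305701 to 190322475), was at 17.3, 15.3 and 21.0 and then 0.783, 1.03 and 1.06 CPM (log2 fold change -4.23, SE 0.15, adjusted p = 1.91e-09). The groups of these 3 genes did not overlap, which was required of genes named for size or a small p. CLDN4 was highest in timepoint 1 replicate 3. Among members chosen after their values were seen, cingulin CGN fell from a mean of 4.04 to 0.35 CPM (-3.53) and the scaffold TJP1, also called ZO-1, from a mean of 172 to 61.2 CPM (-1.49). The polarity gene LLGL1 (0.06) and the splicing regulators ESRP1 and ESRP2 (-0.36 and -0.08) were not called (ESRP1 had an adjusted p of 0.0411 without timepoint 1 replicate 3). TJP3, the scaffold ZO-3, was at 11.3, 11.1 and 12.7 and 2.6, 5.74 and 5.81 CPM (log2 fold change -1.39, SE 0.34, adjusted p = 0.00867), and its call was lost without timepoint 2 replicate 1 (adjusted p = 0.0534). The fit without the block called 14 of the tight junctions and polarity list lower. Over all alternative fits other than those leaving 1 library out, the number was 12 to 20. Transcripts of the list are long, with a median length of 1774 bases against 978 for all genes.

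The genes of adherens junctions and desmosomes, which anchor cells to each other through cadherins, fell in almost the whole list: 19 of 22 were lower, 0 higher, with a median of -0.87. CDH1, E-cadherin, was at 143, 220 and 181 CPM at timepoint 1 and 28.1, 86.4 and 70.1 CPM at timepoint 2 (log2 fold change -1.64, SE 0.22, adjusted p = 0.00011). DSG3, a desmosomal cadherin, was at 43.0, 61.5 and 40.5 and then 4.35, 11.8 and 10.3 CPM (log2 fold change -2.51, SE 0.24, adjusted p = 6.75e-06). DSP, desmoplakin, was at 320, 612 and 487 and then 145, 271 and 228 CPM (log2 fold change -1.14, SE 0.12, adjusted p = 1.43e-05). These 3 genes did not overlap between the timepoints, and timepoint 2 replicate 1 was the lowest of all 6 libraries for each. PPL, periplakin, fell from a mean of 180 to 42.0 CPM (-2.15) and the plakophilin PKP2 from a mean of 57.9 to 27.4 CPM (-1.07). The members not called were beta-catenin CTNNB1 (-0.30), PKP1 (-0.86) and PKP3 (0.00), named after their values were seen; CTNNB1 was called lower by DESeq2, without timepoint 2 replicate 1, with a minimum of 1 CPM in 3 libraries and by limma on the deposited log2 CPM (adjusted p = 0.0164, 0.0162, 0.0436 and 0.0308). Without the block 11 genes of adherens junctions and desmosomes were lower, and without timepoint 1 replicate 2 the number was 12. Transcripts of this list are long, with a median length of 2250 bases against 978 for all genes, and in the top 20% of genes by length the median change was -0.18. With an offset for length and GC content 16 of the list were lower.

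Keratins and basal markers changed unevenly. Of 12 markers listed for basal breast epithelium, 6 were lower and 3 higher. The lower ones included CDH1 and EPCAM, which are not particular to basal cells, and the 3 higher were TP63, ITGB4 and KRT14. EPCAM, a surface adhesion protein, fell from a mean of 34.9 to 11.0 CPM (-1.66) and EGFR from a mean of 293 to 141 CPM (-1.14). TP63, the transcription factor of basal identity, rose from a mean of 27.1 to 42.2 CPM (0.64). ITGB4, the integrin of hemidesmosomes, was at 809, 997 and 712 CPM and then 894, 1927 and 1001 CPM (log2 fold change 0.54, SE 0.18, adjusted p = 0.0349), with overlapping groups. KRT14, a basal keratin, was at 70.7, 94.2 and 230 and then 158, 181 and 238 CPM (log2 fold change 0.72, SE 0.24, adjusted p = 0.0403), also overlapping. KRT14 was above its timepoint 1 value in each pair, but by a small margin in replicate 3. The basal markers called without the block were 3 lower and 0 higher. Without the block EGFR, TP63, ITGB4 and KRT14 were not called (adjusted p = 0.089, 0.222, 0.199 and 0.475). KRT14 lost its call without replicates 1 or 2 of either timepoint (adjusted p up to 0.167). ITGB4 lost its call without any single library but timepoint 2 replicate 1 (adjusted p up to 0.185). Of 17 keratins 5 were lower and 1 higher (median -0.42), with KRT23, KRT6B and KRT80 at log2 fold changes of -4.77, -1.95 and -1.72. Without the block, and without timepoint 1 replicate 1 or timepoint 2 replicate 3, the keratins called lower were 3. Keratins share sequence with close paralogs and pseudogenes. Of 21 squamous differentiation genes 4 were higher and 2 lower (median 0.37). The share called in either direction was near the 28.4% of all genes. The median of this list was near 0 in pairs 1 and 2 and 0.40 in pair 3. With 1 library left out its fitted median ranged from 0.0233 to 0.62. SPRR1B, a cornified envelope precursor, rose from a mean of 0.544 to 2.26 CPM (2.09) and the protease inhibitor PI3 rose too (1.05). Neither passed without the block (adjusted p = 0.099 and 0.174), where 1 squamous gene was higher, against 2 without timepoint 1 replicate 2. SPRR reads may be shared between paralogs.

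Immediate early genes, which are switched on within minutes of stimulation, were lower at timepoint 2 in 22 of 25 cases and higher in 0. Many but not all of them encode transcription factors. The list median was -1.29, with pair medians of -1.04, -1.27 and -1.48. NR4A1, an orphan nuclear receptor, was at 106, 96.1 and 99.2 CPM and then 5.36, 7.26 and 7.52 CPM (log2 fold change -3.94, SE 0.24, adjusted p = 1.71e-07). FOSB, an AP-1 subunit, was at 29.3, 59.1 and 59.6 and then 2.55, 5.08 and 5.37 CPM (log2 fold change -3.51, SE 0.20, adjusted p = 8.97e-08). EGR1, whose promoter with 2 CArG boxes is printed above, was at 36.0, 55.7 and 46.9 and then 16.04, 18.2 and 11.8 CPM (log2 fold change -1.59, SE 0.19, adjusted p = 5.48e-05). All 3 genes were separated between the timepoints, and NR4A1 was nearly level across the timepoint 1 libraries. FOS fell from 64.2, 106 and 84.1 to 32.3, 39.7 and 27.9 CPM (log2 fold change -1.32, SE 0.12, adjusted p = 5.38e-06). The zinc finger factor KLF6 fell from a mean of 139 to 43.1 CPM (-1.69) and the antiproliferative gene BTG2 from a mean of 19.04 to 6.29 CPM (-1.61). SRF, the serum response factor itself, fell from a mean of 22.1 to 9.02 CPM (-1.31), and EGR3, chosen after its value was seen, from a mean of 7.55 to 0.456 CPM (-3.96). MYC was at 919, 688 and 915 and then 557, 586 and 631 CPM (log2 fold change -0.50, SE 0.12, adjusted p = 0.00822), a smaller fall whose call was lost without timepoint 1 replicate 1 (adjusted p = 0.0528). The members not called were KLF2 (-0.80), NR4A2 (-0.20) and IER3 (0.05). Without the block 22 of the immediate early genes were again lower, and with any 1 library left out 19 to 22. Their transcripts are long too, with a median length of 1950 bases against 978 for all genes.

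The lists of the EGF family, ERK feedback and p53 targets had members called in both directions, beside 14.8% higher and 13.6% lower among all genes. For ERK feedback inhibitors the share called in either direction was near the 28.4% of all genes. Of 14 genes of the EGF family and receptors 7 were lower and 1 higher (median -0.62). The receptor ERBB3 was at 31.3, 49.8 and 36.7 CPM and then 3.43, 11.0 and 7.5 CPM (log2 fold change -2.51, SE 0.19, adjusted p = 1.20e-06), with no overlap. The ligand TGFA fell from a mean of 29.5 to 13.8 CPM (-1.10). The ligand-releasing protease ADAM17 fell from a mean of 108 to 35.7 CPM (-1.59) and the receptor inhibitor ERRFI1 from a mean of 90.1 to 41.7 CPM (-1.13). Without the block 5 of the EGF family and receptors were lower. Of 20 ERK feedback inhibitors 4 were lower and 2 higher (median -0.15), with the phosphatase gene DUSP5 at a log2 fold change of -1.01 and DUSP2 at a log2 fold change of 1.19. Without the block 2 ERK feedback inhibitors were lower. Of 22 p53 targets 11 were lower and 1 higher (median -0.56). GADD45A, a DNA damage sensor, was at 75.2, 76.5 and 90.0 CPM and then 33.0, 28.1 and 19.3 CPM (log2 fold change -1.62, SE 0.20, adjusted p = 5.57e-05). CDKN1A, the cell cycle inhibitor p21, was at 216, 219 and 256 and then 154, 149 and 160 CPM (log2 fold change -0.58, SE 0.13, adjusted p = 0.00581). Neither overlapped; with all 18 libraries CDKN1A was not called (adjusted p = 0.0548). The kinase PLK3 and the antioxidant regulator SESN1 had log2 fold changes of -1.38 and -0.89, and TP53I3, chosen after its value was seen, was the called member that rose (1.05). Without the block 10 p53 targets were lower and 1 higher.

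Targets of YAP and TAZ, the transcriptional cofactors that respond to cell spreading and tension, were lower in 13 of 24 cases and higher in 2 (median -0.75, pair medians -0.95, -0.57 and -0.70). CCN2, connective tissue growth factor, was at 20.5, 32.8 and 14.0 CPM and then 3.1, 2.52 and 1.04 CPM (log2 fold change -3.43, SE 0.33, adjusted p = 7.89e-06). CCN1, a matricellular protein, was at 28.8, 39.8 and 17.8 and then 5.04, 6.4 and 2.97 CPM (log2 fold change -2.58, SE 0.26, adjusted p = 1.08e-05). The groups of both were separated, with timepoint 1 replicate 3 the lowest of its group. AJUBA, a LIM scaffold of the Hippo pathway, fell from a mean of 64.1 to 22.6 CPM (-1.52), and TEAD1, the factor that YAP binds, from a mean of 90.1 to 26.0 CPM (-1.77). NT5E and DLC1, chosen after their values were seen, were the called members that rose (1.32 and 0.64), DLC1 losing its call without the block (adjusted p = 0.174) and without any library but timepoint 2 replicate 1 (highest 0.148). Without the block 11 YAP-TAZ targets were lower and 1 higher.

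The actomyosin and focal adhesions list did not move as a whole: 9 of 40 were lower and 7 higher, with a median of -0.15. The LIM protein PDLIM5 was at 267, 278 and 365 CPM and then 120, 123 and 123 CPM (log2 fold change -1.30, SE 0.11, adjusted p = 3.35e-06), with no overlap. The adhesion protein vinculin, VCL, fell from a mean of 196 to 99.8 CPM (-0.97). Calponin CNN3 fell from a mean of 37.9 to 21.8 CPM (-0.81) and the non-muscle myosin heavy chain MYH9 from a mean of 338 to 216 CPM (-0.65). Filamin A, FLNA, was at 2326, 2746 and 1749 and then 1799, 2571 and 1636 CPM (log2 fold change -0.19, SE 0.13, adjusted p = 0.318). Beta-actin, ACTB, was at 8851, 8362 and 11860 and then 9802, 7442 and 7195 CPM (-0.23, SE 0.17, adjusted p = 0.33). Both overlapped between timepoints and were not called. Without the block the counts in actomyosin and focal adhesions were 6 lower and 1 higher, and the number higher was 3 without timepoint 1 replicate 1 or 2 and 4 without timepoint 2 replicate 2. Of 27 laminins, integrins and hemidesmosome genes 8 were lower and 3 higher (median -0.35, pair medians -0.87, -0.42 and 0.01). The collagen-binding integrins ITGA2 and ITGA1 had log2 fold changes of -1.40 and -1.27, and ITGB8 had a log2 fold change of -1.59. The anchoring fibril collagen COL7A1 had a log2 fold change of 1.08, called except without timepoint 1 replicate 2 (adjusted p = 0.0516). Without the block 3 of the laminins, integrins and hemidesmosomes list were lower and 2 higher, and the number lower was 5 without timepoint 1 replicate 1 and 4 without timepoint 2 replicate 1.

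Matrix and protease genes moved in both directions. Of 23 TGF-beta and BMP response genes 8 were lower and 4 higher (median 0.01). THBS1, thrombospondin 1, was at 216, 286 and 316 CPM and then 20.9, 47.5 and 31.1 CPM (log2 fold change -3.07, SE 0.25, adjusted p = 1.82e-06). FN1, fibronectin, was at 290, 378 and 104 and then 736, 2238 and 466 CPM (log2 fold change 2.09, SE 0.33, adjusted p = 0.000431). TGFBI, a secreted adhesion protein, was at 2315, 2062 and 1309 and then 4912, 5574 and 2693 CPM (log2 fold change 1.20, SE 0.15, adjusted p = 7.48e-05). In both genes replicate 3 was the lowest library of each timepoint, and the groups did not overlap. The corepressor gene TGIF1 had a log2 fold change of -0.67. Of 18 proteases and genes of the plasminogen system 5 were lower and 3 higher (median -0.40). PLAU, urokinase, was at 115.7, 148 and 110 and then 10.9, 13.9 and 8.99 CPM (log2 fold change -3.47, SE 0.19, adjusted p = 8.22e-08). Its receptor gene PLAUR fell from a mean of 94.4 to 29.4 CPM (-1.66), and the protease inhibitor SERPINE2 rose from a mean of 17.1 to 43.9 CPM (1.42). The pair medians of the proteases and plasminogen system were -0.60, -0.04 and 0.01, and its median was 0.03 without timepoint 1 replicate 2. In the TGF-beta and BMP response list 5 were lower and 2 higher without the block, and the number lower was 4 without timepoint 1 replicate 2 or timepoint 2 replicate 1 and 5 without timepoint 2 replicate 2.

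Of 27 NF-kB, cytokine and chemokine genes 12 were lower and 3 higher (median -0.52, pair medians -0.03, -0.57 and -1.08). Besides LIF, the adhesion molecule ICAM1 fell from a mean of 9.13 to 3.68 CPM (-1.32) and the chemokine CXCL16 from a mean of 10.9 to 6.23 CPM (-0.83). CSF3, a granulocyte growth factor, was at 41.9, 33.3 and 29.6 CPM and then 86.2, 121 and 56.9 CPM (log2 fold change 1.27, SE 0.18, adjusted p = 0.000178). Without timepoint 2 replicate 3 the number of NF-kB, cytokine and chemokine genes called higher was 5. Of 29 interferon response genes 8 were lower and 2 higher (median -0.09), with OASL, IFIT2, IFIT3 and RIGI at log2 fold changes of -2.41, -2.08, -1.28 and -1.18. The number of interferon response genes called lower was 5 without the block and 5 without timepoint 1 replicate 1. Of 19 glucocorticoid-responsive genes, in cells whose medium held hydrocortisone throughout, 9 were lower and 3 higher (median -0.55). PDK4, which restrains pyruvate oxidation, was at 203, 163 and 153 and then 15.3, 11.9 and 9.32 CPM (log2 fold change -3.85, SE 0.21, adjusted p = 8.97e-08). Its groups were widely separated. The enzyme gene GLUL and the leucine zipper gene TSC22D3 had log2 fold changes of -1.14 and -0.90, and without the block 5 of the glucocorticoid-responsive genes were lower.

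ER chaperones were lower or not called. Of 24, 13 were lower and 0 higher, with a median of -0.47. HSPA5, the chaperone BiP that also holds the stress sensors inactive, was at 194, 211 and 95.8 CPM at timepoint 1 and 43.1, 55.7 and 44.3 CPM at timepoint 2 (log2 fold change -1.75, SE 0.20, adjusted p = 3.29e-05). Every timepoint 2 library was below every timepoint 1 library, and timepoint 1 replicate 3 was the lowest of its group. CANX, the membrane lectin calnexin, was at 934, 1115 and 635 and then 422, 616 and 522 CPM (log2 fold change -0.76, SE 0.18, adjusted p = 0.00672). DNAJC3, a cochaperone and inhibitor of PERK, fell from a mean of 29.3 to 12.2 CPM (-1.23). HYOU1, an ER member of the HSP110 family, fell from a mean of 326 to 172 CPM (-0.91, not called without the block, adjusted p = 0.0824). CALR, MANF, SDF2L1 and CRELD2, named after their values were seen, were not called (-0.21, -0.11, 0.10 and 0.32), though CRELD2 was called higher by DESeq2, with upper-quartile scaling and without timepoint 2 replicate 3 (adjusted p = 0.0401, 0.039 and 0.0395). The number of ER chaperones called lower was 3 without the block, and 6, 4, 6 and 7 without timepoint 1 replicates 1 and 2 and timepoint 2 replicates 1 and 2 in turn; it was 13 without timepoint 1 replicate 3. The list median was between -0.56 and -0.35 in these fits.

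Of 17 genes of ER-associated degradation, which removes misfolded proteins, 7 were lower and 2 higher (median -0.27). HERPUD1, a scaffold of the retrotranslocation complex, was at 128, 128 and 142 CPM and then 102, 75.8 and 79.3 CPM (log2 fold change -0.64, SE 0.11, adjusted p = 0.00101), while EDEM2, a mannosidase-like protein, had a log2 fold change of 0.57. Of 15 unfolded protein response sensors and IRE1-XBP1 genes 7 were lower and 2 higher (median -0.39). The sensor gene ATF6 was at 21.9, 21.1 and 16.6 and then 13.0, 9.8 and 10.7 CPM (log2 fold change -0.83, SE 0.13, adjusted p = 0.000424). XBP1, the factor that IRE1 splices, was at 117, 107 and 120 and then 102, 65.0 and 70.5 CPM (log2 fold change -0.55, SE 0.11, adjusted p = 0.00296, and 0.0584 without the block). Neither gene overlapped. CREB3L2 fell from a mean of 34.7 to 17.9 CPM (-0.93). Without the block 3 were lower in each of the lists ER-associated degradation and unfolded protein response sensors and IRE1-XBP1, and without timepoint 1 replicate 2 the number was 4 in each.

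Targets of ATF4 and CHOP, which carry the integrated stress response, went in both directions: 8 of 30 were lower and 6 higher (median -0.09). ATF4 was at 186, 145 and 300 CPM and then 208, 226 and 234 CPM (0.14, SE 0.19, adjusted p = 0.634) and was not called. DDIT3, which encodes CHOP, was at 8.11, 5.08 and 6.4 and then 9.52, 9.91 and 12.4 CPM (log2 fold change 0.71, SE 0.16, adjusted p = 0.00488) and did not overlap. Its target TRIB3, a pseudokinase, was at 15.1, 14.5 and 15.2 and then 30.2, 33.6 and 39.7 CPM (log2 fold change 1.20, SE 0.14, adjusted p = 5.11e-05). ATF3, a repressor in the same pathway and an immediate early gene, went the other way, from 13.1, 10.9 and 24.3 to 4.41, 7.91 and 7.22 CPM (log2 fold change -1.29, SE 0.26, adjusted p = 0.00257). The same direction was found for PPP1R15A, the phosphatase subunit GADD34 (-1.16), and CEBPB (-0.60, not called without the block, adjusted p = 0.137). PSPH, of serine synthesis, rose from a mean of 16.4 to 27.8 CPM (0.75). Without the block 5 of the ATF4-CHOP stress response list were lower and 4 higher, and without timepoint 1 replicate 1 the numbers were 4 and 4. With all 18 libraries in the fit neither ATF3 nor DDIT3 was called (adjusted p = 0.14 and 0.16).

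Genes of the translocon and N-glycosylation were called in both directions. Of 30 genes 11 were higher and 3 lower, beside 14.8% and 13.6% of all genes, with a median of -0.03. SEC61G, the gamma subunit of the Sec61 channel, was at 63.1, 38.4 and 73.2 CPM and then 121, 105 and 121 CPM (log2 fold change 1.02, SE 0.16, adjusted p = 0.00051). The beta subunit SEC61B rose from a mean of 48.2 to 87.9 CPM (0.89), the oligosaccharyltransferase subunit OSTC from a mean of 35.1 to 57.4 CPM (0.72) and the signal peptidase SEC11A from a mean of 203 to 315 CPM (0.66). SEC61A1, the pore-forming subunit, and STT3B, the catalytic subunit of the transferase, chosen after their values were seen, fell (-0.48 and -0.87). The call of SEC61A1 was lost without the block (adjusted p = 0.142) and without timepoint 1 replicates 1 or 2 or timepoint 2 replicate 1 (0.127, 0.088 and 0.12). The call of STT3B was lost without replicate 2 of either timepoint (0.0599 and 0.0547), and that of SEC11A without the block (0.0712). Without the block 6 of the translocon and N-glycosylation list were higher and 1 lower. The number lower was 0 without timepoint 1 replicate 2, 1 without timepoint 1 replicate 1 or timepoint 2 replicate 1 or 2, and 5 without replicate 3 of either timepoint. Of 25 cytosolic heat shock proteins, a list that also holds some mitochondrial ones, 8 were higher and 3 lower (median 0.15). HSPA8, the constitutive HSP70, was at 3401, 2847 and 4738 and then 7513, 5805 and 7665 CPM (log2 fold change 0.96, SE 0.13, adjusted p = 0.00014). HSPB1, the small heat shock protein HSP27, rose from a mean of 170 to 414 CPM (1.33). HSPE1, the mitochondrial cochaperonin, rose from a mean of 78.9 to 141 CPM (0.85), and the cochaperone BAG3 fell from a mean of 53.5 to 33.7 CPM (-0.67). Without the block 5 cytosolic heat shock proteins were higher and 1 lower.

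Genes of the cytosolic ribosome rose together. Of 41 ribosomal protein genes 39 were called higher and 0 lower, against 14.8% higher among all genes, with a median of 1.12. The 2 not called were RPL7 and RPL22 (0.52 and 0.75; adjusted p = 0.0278 and 0.00573 without timepoint 1 replicate 3, and 0.0325 for RPL22 with no low-count filter). RPS6, the ribosomal protein phosphorylated by S6 kinase, was at 1228, 906 and 2635 CPM at timepoint 1 and 2867, 3295 and 4100 CPM at timepoint 2 (log2 fold change 1.21, SE 0.25, adjusted p = 0.00289). RPL24, of the large subunit, was at 359, 227 and 642 and then 796, 874 and 1089 CPM (log2 fold change 1.26, SE 0.24, adjusted p = 0.00158). The timepoint 2 libraries were above all timepoint 1 libraries, and timepoint 1 replicate 3 lay between the other timepoint 1 libraries and those of timepoint 2. The pair medians of the list were 1.07, 1.88 and 0.48. Without the block 18 of the cytosolic ribosomal proteins were higher, without timepoint 1 replicate 2 the number was 22, and without timepoint 1 replicate 3 it was 41 with a median of 1.42. Most of these genes have processed pseudogenes, and how reads shared with them were counted is not stated. Their transcripts are short, with a median length of 713.5 bases, and the fit with the length and GC offset gave 39 higher and a median of 1.01. Timepoint 1 replicate 3 and the timepoint 2 libraries, where the ribosomal protein share was largest, also had the largest ratios of summed counts to header totals. The bearing of that ratio on the rise was not tested. Of 36 ribosome biogenesis genes 8 were higher and 0 lower (median 0.10). The nucleolar protein gene NOP56 rose from a mean of 327 to 647 CPM (1.00). The number higher was 3 without the block, 4 without timepoint 1 replicate 1, and 5 without timepoint 1 replicate 2 or timepoint 2 replicates 1 or 3.

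Among the oxidative phosphorylation genes that were called, most nuclear ones were higher and the mitochondrially encoded ones were lower, while the list medians of pair 3 were near 0 (0.07 and -0.03). Of 34 nuclear oxidative phosphorylation subunits 17 were higher and 2 lower (median 0.46). UQCRB, of complex III, was at 275, 189 and 401 CPM and then 503, 447 and 570 CPM (log2 fold change 0.85, SE 0.15, adjusted p = 0.00119). NDUFB3, of complex I, rose from a mean of 34.9 to 64.8 CPM (0.93). The number of nuclear oxidative phosphorylation subunits called higher was 7 without the block, 7 and 6 without timepoint 1 replicates 1 and 2, 9 and 7 without timepoint 2 replicates 1 and 2, and 22 without timepoint 1 replicate 3. Of 13 mitochondrially encoded genes 10 were lower and 0 higher (median -0.83, pair medians -1.93, -0.67 and -0.03). MT-ATP8, an ATP synthase subunit, was at 126, 108 and 67.8 and then 38.5, 37.2 and 33.9 CPM (log2 fold change -1.41, SE 0.26, adjusted p = 0.0015). MT-ND1, of complex I, was at 502, 307 and 239 and then 131, 201 and 220 CPM (log2 fold change -0.84, SE 0.23, adjusted p = 0.0155). Timepoint 1 replicate 1 was the highest library for both, and in pair 3 MT-ND1 barely differed. The number of mitochondrially encoded genes called lower was 2 and 6 without timepoint 1 replicates 1 and 2, 4 and 5 without timepoint 2 replicates 1 and 2, 2 in a fit of the compared groups alone, and 13 without replicate 3 of either timepoint. MT-ND1 was not called without timepoint 1 replicate 1 (adjusted p = 0.0867). Nuclear pseudogenes of mitochondrial DNA can share such reads.

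**Figure D3:**
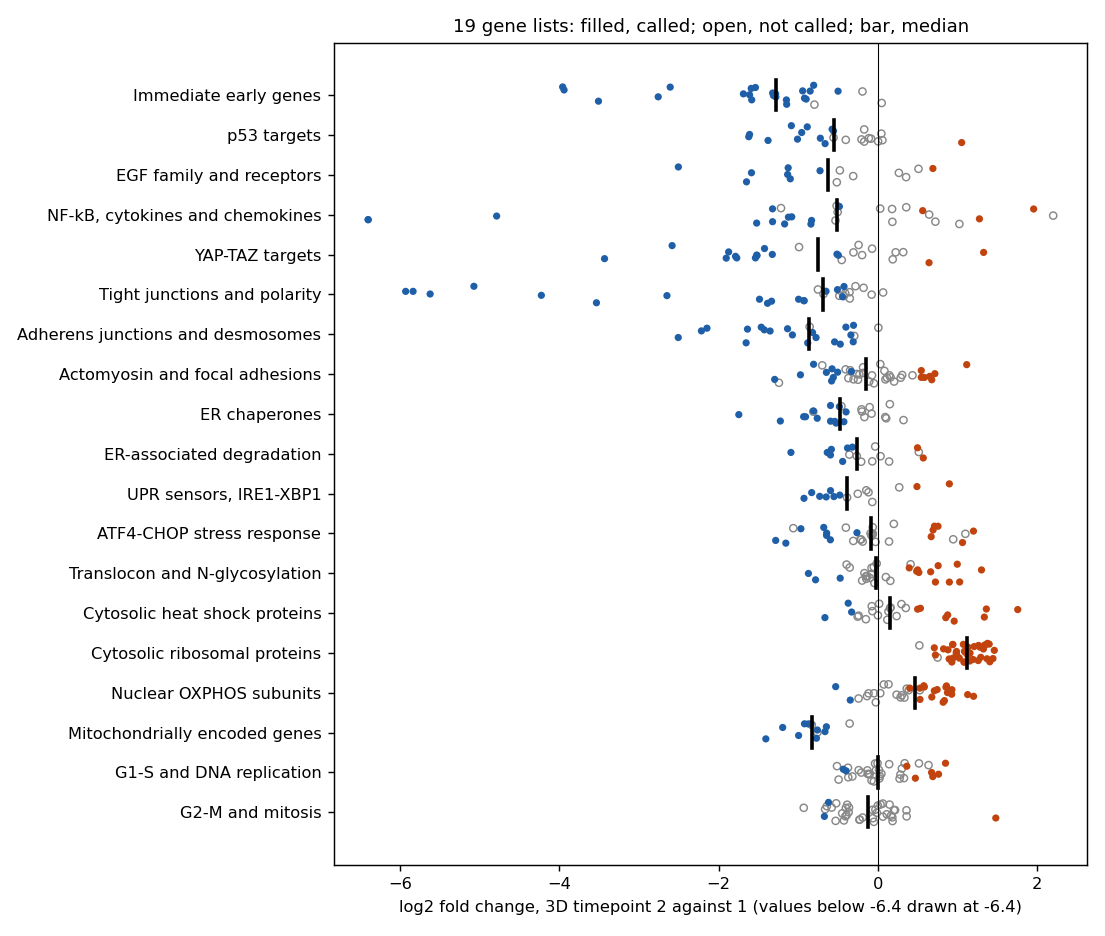
Log2 fold changes (x axis) of the members of 19 gene lists (rows); filled orange and blue points are members called higher and lower, open points are not called, and the black bar is the list median. Immediate early, adherens junction and tight junction lists lie mostly below 0 and cytosolic ribosomal proteins above it; points below -6.4 are drawn at -6.4.

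Cell cycle genes were called in 3D near or below the share of all genes, and their pairs differed. Of 36 genes of G1-S and DNA replication 6 were higher and 2 lower, beside 14.8% and 13.6% of all genes, with a median of 0.00. CCNE1, cyclin E1, was at 11.8, 9.67 and 12.3 CPM and then 22.4, 14.4 and 24.97 CPM (log2 fold change 0.85, SE 0.12, adjusted p = 0.000168), with no overlap. MCM10, a replication initiation factor, rose from a mean of 10.6 to 18.6 CPM (0.76, adjusted p = 0.0889 without the block). CCNE2 was at 5.41, 4.06 and 6.02 and then 11.3, 4.47 and 9.51 CPM (0.63, SE 0.27, adjusted p = 0.101, and 0.00627 with the length and GC offset). Of 38 G2-M and mitosis genes 1 was higher and 2 lower, with a median of -0.13 and pair medians of -0.29, -0.81 and 0.55, so pair 3 went the other way from pairs 1 and 2. CKS2, a cyclin-dependent kinase subunit, was at 11.1, 8.91 and 12.1 and then 25.1, 23.7 and 42.0 CPM (log2 fold change 1.48, SE 0.15, adjusted p = 1.47e-05), with separated groups. The phosphatase genes CDC25B and CDC25C fell (-0.62 and -0.67) and both lost their calls without each of timepoint 1 replicates 1 and 2 and timepoint 2 replicates 1 and 2 in turn (highest adjusted p 0.0978 and 0.176), so that 0 were lower. There were 5 lower without timepoint 1 replicate 3. MKI67 was at 73.2, 141 and 48.9 and then 39.7, 64.8 and 94.7 CPM (-0.39, SE 0.39, adjusted p = 0.499). CCNB1, cyclin B1, was at 163, 126 and 115 and then 142, 71.2 and 149 CPM (-0.23, SE 0.23, adjusted p = 0.504). Both overlapped, and in pair 3 both were higher at timepoint 2. Without the block 1 gene of G1-S and DNA replication was higher and 0 lower, without timepoint 1 replicate 3 there were 4 lower, and with the length and GC offset 10 higher. Of 13 replication-dependent histones, whose transcripts mostly lack poly-A tails, 1 was higher and 2 lower.

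**Figure D4:**
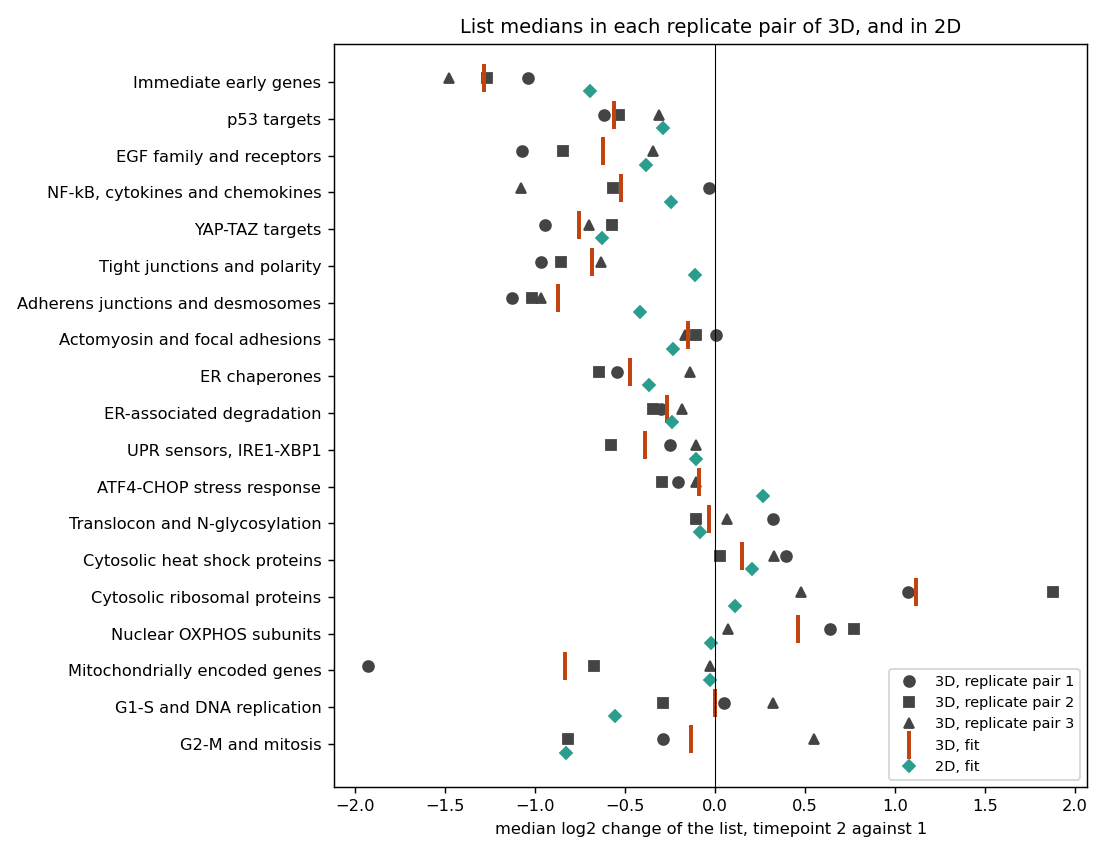
Median log2 change from timepoint 1 to 2 (x axis) for 19 gene lists (rows). Dark circles, squares and triangles are replicate pairs 1, 2 and 3 of 3D culture, the orange bar is the fitted 3D value and the green diamond the fitted 2D value. The 3 pairs agree in sign for immediate early genes and both junction lists, and for G2-M and mitosis pair 3 lies at 0.55 while pairs 1 and 2 lie at -0.29 and -0.81.

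Metabolic lists had members called in both directions, beside 14.8% higher and 13.6% lower among all genes. The NRF2 and glutathione list was called near those shares in both directions. Of 24 cholesterol synthesis genes 7 were lower and 2 higher (median -0.09). LSS, which closes the sterol ring, fell from a mean of 203 to 99.0 CPM (-1.04). The synthase gene HMGCS1 was at 39.3, 43.6 and 40.0 and then 45.6, 24.3 and 32.8 CPM (-0.29). Its groups overlapped and it was not called. Of 17 fatty acid synthesis genes 6 were lower and 3 higher (median -0.36, pair medians -0.55, -0.51 and -0.05). The desaturase FADS2 and the phosphatase LPIN1 had log2 fold changes of -1.32 and -1.33, and DGAT2 rose. Of 33 genes of glycolysis and hypoxia response 9 were higher and 5 lower (median 0.05), with HILPDA, a lipid droplet protein, at a log2 fold change of 1.35 and the demethylase KDM3A at a log2 fold change of -0.82. Of 24 NRF2 and glutathione genes 4 were higher and 3 lower (median -0.01). GCLC, which limits glutathione synthesis, was at 405, 345 and 226 CPM and then 115.9, 103 and 61.1 CPM (log2 fold change -1.81, SE 0.13, adjusted p = 7.66e-07). It was lower in each pair and its groups did not overlap. The thioredoxin reductase TXNRD1 fell from a mean of 922 to 384 CPM (-1.25), and thioredoxin, TXN, rose from a mean of 157 to 289 CPM (0.89). Without the block the counts were 2 higher and 3 lower in cholesterol synthesis, 2 and 4 in fatty acid synthesis, 4 and 2 in glycolysis and hypoxia response, and 1 and 2 in NRF2 and glutathione. The number higher in NRF2 and glutathione was 1 or 2 without any 1 of timepoint 1 replicates 1 and 2 and timepoint 2 replicates 1 and 2. The number lower in glycolysis and hypoxia response was 3 without timepoint 1 replicate 2 or timepoint 2 replicate 1, and the number higher in cholesterol synthesis was 4 without timepoint 2 replicate 1.

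Of the remaining lists, 20 cytosolic tRNA synthetases had 1 higher and 1 lower (median -0.04) and 30 proteasome subunits 4 higher and 0 lower (median 0.20). The proteasome subunits called higher were 0 without the block, 1 without timepoint 1 replicates 1 or 2 or timepoint 2 replicate 1, and 11 without timepoint 1 replicate 3. Of 5 metallothioneins, which resemble each other closely, 2 were higher (median 0.68), 0 without timepoint 1 replicate 2 and 4 without timepoint 1 replicate 3. Of 26 lysosome and autophagy genes 6 were lower and 2 higher (median -0.15): the autophagy kinase ULK1 and the cholesterol exporter NPC1 had log2 fold changes of -1.28 and -1.07, and NPC2, its soluble partner, had a log2 fold change of 0.87. Of 18 circadian clock genes 6 were lower and 3 higher (median -0.18, pair medians -0.11, -0.74 and -0.02). The median turned to 0.0938 and 0.0721 without replicate 2 of timepoint 1 or 2, and the number higher was 0 without timepoint 1 replicate 2 and 1 without the block or without replicate 3 of either timepoint. The repressors NR1D2 and CRY1 had log2 fold changes of -1.43 and -0.97. Of 22 long noncoding RNAs 7 were higher and 3 lower (median 0.33). LINC00460 rose from a mean of 4.18 to 12.8 CPM (1.65) and MIR205HG, the host of a basal epithelial microRNA, from a mean of 428 to 1033 CPM (1.32). NEAT1, the scaffold of paraspeckles, fell from a mean of 100 to 34.8 CPM (-1.61). Of 13 tested markers of other cell types 1 was higher, CD68, which epithelial lysosomes also contain (from a mean of 6.73 to 16.8 CPM, 1.31). Those lower were 2, the endothelial receptor gene KDR and the luminal factor gene FOXA1 (-2.24 and -0.82, the second not called without timepoint 1 replicate 2, adjusted p = 0.105). The part of other cells in the results was not tested beyond these levels.

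The change from timepoint 1 to 2 in 3D was then compared with that in 2D by the difference of the changes in the same fit, which asks where the time course differed between medium with and without added Matrigel. In 2D 2539 genes were called (13.7%), 1226 higher (6.59%) and 1313 lower (7.06%). The difference of the changes was called for 243 genes (1.31%), with 144 changing more positively in 3D (0.775%) and 99 more negatively (0.532%). Without the replicate block 0 were called by edgeR, with 1624 at an unadjusted p under 0.05, so the calls depend on the block. DESeq2 with the block called 1002, and the count was 24 in a fit of the 4 groups alone. With 1 library left out it was 724 without 3D timepoint 1 replicate 3 and 610 without 2D timepoint 1 replicate 2. For the others it was 54 and 62 without 3D timepoint 1 replicates 1 and 2, 89, 91 and 121 without 3D timepoint 2 replicates 1, 2 and 3. It was 59 and 117 without 2D timepoint 1 replicates 1 and 3, and 35, 154 and 59 without 2D timepoint 2 replicates 1, 2 and 3.

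Several junction genes fell further in 3D than in 2D. Among tight junctions and polarity, 8 of 29 had a difference called and all 8 were more negative in 3D, against 0.532% of all genes, and among adherens junctions and desmosomes 5 of 22 were. The 8 include the transcription factors ELF3 and OVOL1, which are not junction components. ELF3 went from 62.4, 56.5 and 126 to 17.2, 15.7 and 23.9 CPM in 2D, a log2 change of -2.03 beside -5.84 in 3D (difference -3.80, SE 0.41, adjusted p = 0.00265). OCLN went from 8.47, 14.8 and 11.9 to 1.09, 1.6 and 3.47 CPM in 2D (difference -2.99, SE 0.52, adjusted p = 0.0186). Both genes fell in both cultures, and at timepoint 2 every 2D library exceeded every 3D library. The differences of CLDN4 and CLDN1 were -2.83 and -1.51, and those of the desmosomal genes DSG3, PPL and DSP -1.57, -1.38 and -0.84. In the tight junctions and polarity list 10 genes were lower in 2D, and the 2D median was -0.11. TJP3 stood at 12.1, 10.2 and 12.7 and then 21.3, 25.5 and 21.6 CPM in 2D (difference -2.34, SE 0.48, adjusted p = 0.0325). ATF3 rose in 2D, from 9.39, 9.51 and 18.8 to 21.3, 27.4 and 29.5 CPM (log2 change 1.09), and fell in 3D (difference -2.38, adjusted p = 0.00871). FOSB went from 23.7, 25.4 and 39.6 to 15.4, 24.0 and 20.5 CPM in 2D, a change of -0.58 beside -3.51 in 3D (difference -2.93, adjusted p = 0.000378).

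The genes that changed more positively in 3D included cell cycle genes. CKS2 was at 12.6, 9.71 and 10.2 and then 9.76, 7.86 and 11.5 CPM in 2D, where it was not called (-0.18), and rose in 3D (difference 1.66, SE 0.22, adjusted p = 0.00417). GINS2, a subunit of the replicative helicase, fell in 2D from 9.13, 7.63 and 13.2 to 5.04, 4.9 and 8.18 CPM. In 3D it went from 8.96, 8.05 and 12.8 to 13.1, 11.1 and 25.3 CPM (log2 fold change 0.67, SE 0.12, adjusted p = 0.00115, and 0.163 without the block; difference 1.40, adjusted p = 0.00349). In 2D 19 of 36 genes of G1-S and DNA replication and 18 of 38 G2-M and mitosis genes were lower, with medians of -0.56 and -0.83, beside the 3D medians of 0.00 and -0.13. The difference itself was called for 4 and 6 of them, each more positive in 3D. NOX5 had a difference of 2.16 (SE 0.45, adjusted p = 0.0373) and TGFBI of 1.17 (adjusted p = 0.0198). SFTA1P, a noncoding RNA, was not called in 3D (4.95, 4.95 and 8.6 and then 7.68, 3.67 and 8.88 CPM, 0.06) and fell in 2D (-1.70; difference 1.76). The other genes with large positive values were the recombination gene RDM1 (1.66), LINC00460 (1.495) and GIHCG (1.44). For cytosolic ribosomal proteins the 2D median was 0.11 with 0 of 41 called in 2D and a difference called for 0 of 41 as well, so a difference between the cultures is not shown gene by gene.

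**Figure D5:**
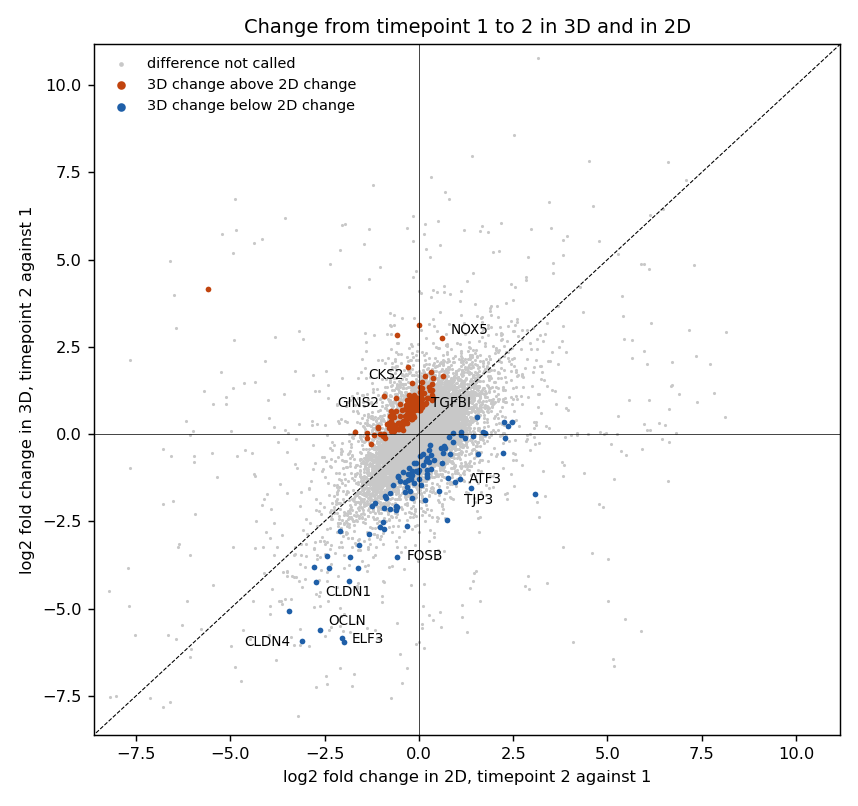
Log2 fold change from timepoint 1 to 2 in 3D (y axis) against that in 2D (x axis) for all tested genes. The dashed line marks equal change, orange and blue points have a called difference above and below it, and grey points do not. ELF3, OCLN and CLDN4 lie below the line with falls in both cultures, while CKS2 and NOX5 lie above it.

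From timepoint 2 to timepoint 3 edgeR called 0 genes in 3D (0%), with 1919 at an unadjusted p under 0.05; DESeq2 called 257 and limma-voom 3. At timepoint 3 CYP1A1 was at 0.835, 1.38 and 1.03 CPM, ELF3 at 0.251, 0.699 and 1.45 CPM, CLDN1 at 0.849, 0.782 and 1.07 CPM and HSPA5 at 60.9, 51.1 and 38.8 CPM, each below every timepoint 1 library. INSC was at 18.4, 21.6 and 6.69 CPM and MLPH at 62.5, 54.9 and 35.4 CPM, above every timepoint 1 library. The timepoint 2 libraries enter both comparisons, so their values are not independent.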

How the data were processed

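Poly-A RNA-seq of MCF10A cells was deposited by the authors as a table of whole-number counts for 60662 genes, and as a table of log2 CPM for 13677 genes and 17 libraries, per the file headers. STAR 2.7.1a, HOMER, edgeR, limma and hg38 are named in the submitters' processing notes, without their roles. No source used here gives the annotation release, strand setting or filters. The gene counts were fitted here for 17 libraries (2D timepoint 3 replicate 1 was left out, since its labels list the raw table alone) with edgeR 4.0.16 in R 4.3.3: low-count filtering by edgeR's defaults, TMM scaling, and a quasi-likelihood model with a term for each group and the replicate number as a block. SE is the size of the log2 fold change divided by the square root of F, and p-values were adjusted over all 18592 genes. CPM values use TMM-scaled library sizes. The pairing comes from the sample descriptions, where the libraries of a replicate number share a date (what it marks is not stated). Deviations of same-numbered 3D libraries from their group means correlated at 0.269, 0.202 and 0.0911, and those of different numbers at -0.21 to 0.004. Deviations from a mean of 3 libraries sum to 0, so positive values for the same number push those for different numbers down. The low values for different numbers are therefore not separate evidence for the pairing.

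Genes are named by a rule: the 10 largest and 5 smallest-p changes each way with a mean count of at least 100 and separated, same-direction libraries; up to 4 called members per list by p; a fixed set of genes; and the 6 largest differences between cultures each way. The comparison, 41 gene lists (987 genes, 986 in the table) and motifs were chosen with earlier results of these data known. Symbols matched for 60261 genes, and coordinates are from GENCODE v29. Alternatives were limma 3.58.1 (voom, and limma on the deposited log2 CPM), DESeq2 1.42.0, other scalings, filters and sample sets, and each library left out. The length and GC offset and the deposited log2 CPM were added after seeing the data. The code was tested on simulated counts. Some genes that the naming rule picks are not reported here.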

Additional observations from a re-analysis of the deposited data

Results flagged for a closer look

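The change from timepoint 1 to 2 differed between 3D and 2D culture by the edgeR test of the difference itself for 29 of the genes named, given here as the 3D minus the 2D log2 change. The difference was negative for ELF3 (-3.80), OCLN (-2.99), FOSB (-2.93), CLDN4 (-2.83), ATF3 (-2.38), TJP3 (-2.34), CGN (-1.72), OVOL1 (-1.62), DSG3 (-1.57), CLDN1 (-1.51), IFIT2 (-1.498), PDK4 (-1.47), PPL (-1.38), SOX9 (-1.005), DSP (-0.84), LPIN1 (-0.84) and C1orf116 (-0.68). Of these, ATF3 rose in 2D, and TJP3 was higher at timepoint 2 there without passing the test (0.95). The difference was positive for NOX5 (2.16), SFTA1P (1.76), RDM1 (1.66), CKS2 (1.66), LINC00460 (1.495), GIHCG (1.44), GINS2 (1.40), TGFBI (1.17), SEC61G (1.08), OSTC (1.04), HSPE1 (0.85) and TXN (0.84). Without the replicate block edgeR called 0 genes for this difference. GINS2 rose in 3D and fell in 2D.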

How the results depend on the processing

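The 5279 genes called between timepoints 1 and 2 in 3D became 2801 without the replicate block, 2796 in a fit of the 2 groups alone and 1823 with a fold of at least 2 required. Leaving out 1 library gave 3280 to 5323. The other fits, among them DESeq2, limma-voom, 2 other scalings, 2 other filters, all 18 libraries, the length and GC offset and the deposited log2 CPM, stayed within 1.5 times the main count, and no called gene was called in the opposite direction. The 243 genes whose change differed between 3D and 2D became 0 without the replicate block, 1002 with DESeq2, 29 with all 18 libraries, 24 in a fit of the 4 groups alone, 134 with a fold of at least 2 and 478 with the length and GC offset, and leaving out 1 library gave 35 to 724. The cause of these moves was not tested. The median log2 fold change of cholesterol synthesis, -0.09, ranged from -0.195 to 0.0217 with 1 library left out, turning positive without 3D timepoint 1 replicate 1. That of the proteases and plasminogen system, -0.40, ranged from -0.524 to 0.0268, turning positive without 3D timepoint 1 replicate 2, and was 0.0215 with no low-count filter. Other list medians also changed sign with 1 library left out, with ranges of -0.401 to 0.0938 for the circadian clock, -0.462 to 0.0345 for G2-M and mitosis, -0.106 to 0.091 for G1-S and DNA replication, -0.386 to 0.0502 for TGF-beta and BMP response, -0.0531 to 0.0535 for the translocon and N-glycosylation, -0.0703 to 0.154 for glycolysis and hypoxia response, -0.201 to 0.036 for cytosolic tRNA synthetases and -0.0191 to 0.0264 for NRF2 and glutathione. Counts of 3 or fewer genes in a list often moved with a single library. The 3 libraries a group and summed counts that exceed the header totals limit the precision; genes near 0 counts at 1 timepoint have fold changes that depend on the prior count.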

Other observations

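CYP1A1, the gene with the largest fall among those named for size, is a textbook target of the aryl hydrocarbon receptor, and other genes known as such targets were looked up after its value had been seen. CYP1B1, a cytochrome of the same family, fell by edgeR's test from a mean of 113 to 13.6 CPM, a log2 change of -3.09 (SE 0.38, adjusted p = 6.04e-05). TIPARP, which modifies and restrains the receptor, fell from a mean of 144 to 50.1 CPM, a log2 change of -1.55 (adjusted p = 4.92e-05). ALDH1A3, a retinaldehyde dehydrogenase, fell from a mean of 115 to 20.0 CPM, a log2 change of -2.48 (adjusted p = 1.06e-07). NQO1, a quinone reductase that NRF2 also drives, was not called (0.10, adjusted p = 0.656), and neither was the receptor gene AHR itself (-0.42, adjusted p = 0.104), whose adjusted p was 0.0243 without timepoint 1 replicate 3, 0.033 without timepoint 2 replicate 3 and 0.0465 with the length and GC offset. In 2D, CYP1A1 went from 150, 124 and 188 CPM to 1.44, 1.11 and 1.65 CPM, a log2 change of -6.78, and its difference between the cultures was not called (-1.03, adjusted p = 0.417). CYP1B1, TIPARP and ALDH1A3 changed by -2.08, -1.37 and -1.94 in 2D.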
